A study of Mus musculus with 120 samples.

Results

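The regions described here are windows of 1 kb inside protein-coding genes of 100 to 500 kb at which DNA methylation differed between App-NLGF mice and wild-type mice. A window was taken if it lay on chromosomes 1 to 19 and overlapped the body of a protein-coding gene in the RefSeq annotation of GRCm38. The longest coding gene it overlapped, its host gene, had to measure at least 100 kb and less than 500 kb, and the window had to lie more than 1 kb from the start and the end of every coding gene. Of the 8961 windows called in 6 comparisons, 944 met this rule, which is 11.3% of the 8381 called on chromosomes 1 to 19. They lay in 721 of the 2097 coding genes of this length, or 34.4%, and 552 of these host genes held a single window.

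Whole-genome bisulfite sequencing was used to read methylation, a method in which unmethylated cytosine is converted to uracil and methylated cytosine is not. The mutant animals were App-NLGF knock-in mice, whose endogenous App gene on chromosome 16 encodes a humanised amyloid-beta region with the Swedish, Iberian and Arctic familial Alzheimer mutations under the control of its own promoter, and the other animals were wild type. The labels gave 120 libraries in 12 groups of 10, with 5 libraries of each sex per group: App-NLGF hippocampus, wild-type hippocampus, App-NLGF blood and wild-type blood, each at postnatal weeks 3, 8 and 24. The strain background, the zygosity of the knock-in and whether blood and hippocampus came from the same animals are details not stated in these sources. Both tissues hold many cell types, so a shift in their proportions and a change of methylation within cells cannot be told apart, and the identity of the tissues could not be checked against marker genes because no expression values or methylation levels per library were used.

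The authors' deposited table gives each window a p-value, its adjusted value and a difference of methylation in percentage points, from a comparison of the genotypes within 1 tissue and week with sex as a covariate. Differences were read as App-NLGF minus wild type from the name of the comparison alone, and all directions would turn round if the order were the opposite. The annotation used gives gene bodies without exons, so exon and intron are not separated. The table lists called windows, with an adjusted p under 0.1 and a difference of at least 10 points in either direction. The depth behind each value is unknown, no spread between animals can be given, and intervals in the text are exact Clopper-Pearson intervals at 95% that describe lists of windows, not animals.

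In mammalian DNA most CpG dinucleotides inside genes are methylated, while CpG-rich promoters usually stay unmethylated in cells of any type. Long genes often carry more than a single transcription start, so a stretch that is gene body for the longest transcript can be the promoter of a shorter one. Many of the longest genes in the mouse encode receptors, ion channels, adhesion molecules and synaptic proteins of neurons, and several others encode transcription factors and signalling proteins that blood cells use as well.

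Annotated promoters inside the gene body, some of them near its 5′ end, recur in the results for blood at week 8. Of the promoters in called windows, 8 are shown so that their CpG content can be compared. The first 6 belong to the host genes of windows that were lower in App-NLGF blood at week 8, and the last 2 to host genes of windows from other comparisons. They were chosen after their values were seen, as promoters of the host gene with at least 250 bases inside a called window, with the smallest adjusted p in blood at week 8. Each runs 5′ to 3′ from 250 bases before to 50 bases after an annotated transcription start, is taken from RefSeq for GRCm38.p6, and has each CpG dinucleotide (the motif CG, which reads the same on both strands) in capitals.
Zfp536: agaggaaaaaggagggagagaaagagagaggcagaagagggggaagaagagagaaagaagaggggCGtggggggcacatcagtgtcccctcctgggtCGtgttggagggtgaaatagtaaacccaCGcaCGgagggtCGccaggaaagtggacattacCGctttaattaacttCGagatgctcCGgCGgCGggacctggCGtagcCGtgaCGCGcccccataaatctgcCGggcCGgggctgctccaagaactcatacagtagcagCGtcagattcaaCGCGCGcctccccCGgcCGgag
Cep70: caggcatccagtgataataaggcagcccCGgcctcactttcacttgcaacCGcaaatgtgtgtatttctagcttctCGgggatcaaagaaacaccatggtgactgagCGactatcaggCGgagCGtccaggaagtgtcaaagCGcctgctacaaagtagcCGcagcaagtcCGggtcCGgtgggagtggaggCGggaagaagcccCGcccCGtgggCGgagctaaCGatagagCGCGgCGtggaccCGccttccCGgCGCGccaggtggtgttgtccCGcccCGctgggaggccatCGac
Eif4g3: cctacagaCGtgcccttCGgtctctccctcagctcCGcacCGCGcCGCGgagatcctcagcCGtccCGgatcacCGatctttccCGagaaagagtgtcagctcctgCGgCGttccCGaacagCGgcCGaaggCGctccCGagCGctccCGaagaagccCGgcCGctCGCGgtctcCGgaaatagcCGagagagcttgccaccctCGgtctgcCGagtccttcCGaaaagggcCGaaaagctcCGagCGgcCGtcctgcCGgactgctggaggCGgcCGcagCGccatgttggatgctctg
Sgk1: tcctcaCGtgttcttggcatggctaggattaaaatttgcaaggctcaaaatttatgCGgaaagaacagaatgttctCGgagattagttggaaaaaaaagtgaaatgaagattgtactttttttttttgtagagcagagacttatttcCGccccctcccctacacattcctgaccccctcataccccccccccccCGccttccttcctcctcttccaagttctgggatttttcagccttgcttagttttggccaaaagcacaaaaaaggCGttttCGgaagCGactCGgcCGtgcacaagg
Ulk4: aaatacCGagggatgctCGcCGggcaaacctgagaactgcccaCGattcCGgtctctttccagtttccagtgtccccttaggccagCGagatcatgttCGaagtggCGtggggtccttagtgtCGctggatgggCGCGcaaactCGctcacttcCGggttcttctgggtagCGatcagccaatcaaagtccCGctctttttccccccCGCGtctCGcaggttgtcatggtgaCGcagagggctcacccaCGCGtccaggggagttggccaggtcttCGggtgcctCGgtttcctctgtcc
Gcnt2: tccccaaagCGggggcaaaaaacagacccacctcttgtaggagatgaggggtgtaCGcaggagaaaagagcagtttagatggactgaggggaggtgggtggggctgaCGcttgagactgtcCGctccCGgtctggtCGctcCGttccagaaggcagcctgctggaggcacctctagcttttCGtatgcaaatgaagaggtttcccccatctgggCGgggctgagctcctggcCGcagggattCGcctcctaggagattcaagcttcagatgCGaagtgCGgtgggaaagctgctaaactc
Plb1: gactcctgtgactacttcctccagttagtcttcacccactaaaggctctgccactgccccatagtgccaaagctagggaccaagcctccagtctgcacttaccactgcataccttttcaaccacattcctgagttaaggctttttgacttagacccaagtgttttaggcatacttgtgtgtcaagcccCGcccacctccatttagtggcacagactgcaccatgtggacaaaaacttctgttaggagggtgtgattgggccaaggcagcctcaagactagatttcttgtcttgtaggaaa
Atxn2: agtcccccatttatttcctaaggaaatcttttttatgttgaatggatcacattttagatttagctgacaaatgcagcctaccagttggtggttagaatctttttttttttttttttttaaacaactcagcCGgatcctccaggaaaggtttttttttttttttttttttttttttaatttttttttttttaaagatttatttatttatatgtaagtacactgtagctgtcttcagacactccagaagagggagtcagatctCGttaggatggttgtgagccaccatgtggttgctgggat
The Zfp536 promoter (chr7:37769703-37770002, minus strand) held 22 CpG dinucleotides, the Cep70 promoter (chr9:99243091-99243390, plus strand) held 25 and the Eif4g3 promoter (chr4:137993205-137993504, plus strand) held 37. The Sgk1 promoter (chr10:21993640-21993939, plus strand) held 10, the Ulk4 promoter (chr9:121277123-121277422, minus strand) held 23 and the Gcnt2 promoter (chr13:40917384-40917683, plus strand) held 13. All 6 of these had 10 or more. The Plb1 promoter (chr5:32353330-32353629, plus strand), from hippocampus at week 24, held 1, and the Atxn2 promoter (chr5:121738282-121738581, plus strand), from blood at week 3, held 2.

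Counts of windows were of similar size in 4 of the comparisons, lowest in blood at week 24 and highest in blood at week 8. For hippocampus at week 3, 142 windows lay inside genes of 100 to 500 kb, where 0.0440% of the 2325272 windows recovered as tested across the genome were called in either direction. Hippocampus at week 8 had 111 windows, with 0.0318% of all tested windows called, and in hippocampus at week 24 there were 140, with 0.0408% called. In blood there were 155 windows at week 3, with 0.0495% of all tested windows called, 330 at week 8, with 0.196% called, and 66 at week 24, with 0.0244% called. The 6 counts ranked in the same order as the lengths of the whole lists, which were 1024, 742 and 949 windows in hippocampus at weeks 3, 8 and 24 and 1153, 4526 and 567 in blood.

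The direction of the differences varied with age in both tissues, which is a description of the lists and was not tested. In hippocampus at week 3, 42 windows were higher and 100 were lower in App-NLGF (29.6% higher, 95% interval 22.2 to 37.8), against 0.0130% and 0.0311% of all tested windows. At week 8 in hippocampus 58 were higher and 53 lower (52.3%, 42.6 to 61.8; 0.0174% and 0.0145% of all tested windows), and at week 24, 77 were higher and 63 lower (55.0%, 46.4 to 63.4; 0.0239% and 0.0169%). The intervals of both later weeks included an even split. In blood at week 3, 96 windows were higher and 59 lower (61.9%, 53.8 to 69.6), against 0.0313% and 0.0182% of all tested windows. Week 8 in blood had 50 higher and 280 lower windows (15.2%, 11.5 to 19.5), against 0.0218% and 0.175%. Week 24 had 54 higher and 12 lower (81.8%, 70.4 to 90.2), against 0.0202% and 0.00427%.

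These shares stood close to those of all other autosomal windows in 5 of the 6 comparisons. Windows inside genes of 100 to 500 kb were higher in 29.6%, 52.3% and 55.0% of cases in hippocampus, and all other autosomal windows in 29.1%, 55.7% and 57.7%. In blood at weeks 3 and 24 the windows inside these genes were higher in 61.9% and 81.8% of cases, and all others in 63.6% and 80.7%. The share higher in blood at week 8 was 15.2% inside these genes and 10.5% (9.60 to 11.5) elsewhere. Without gene-end windows in the comparison, the other windows of blood at week 8 were higher in 19.5% (17.8 to 21.3). By gene length the share higher in that list was 15.2% inside genes of 100 to 500 kb, 6.58% (4.62 to 9.03) inside coding genes under 100 kb and 26.4% (19.8 to 33.8) inside coding genes of 500 kb or more. Outside coding genes the share was 15.9% (11.8 to 20.8) for windows in noncoding genes only and 25.6% (23.1 to 28.3) for windows in no annotated gene. The intervals of the 3 length classes did not overlap, but they describe windows, not animals. The difference between the length classes was not tested.

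**Figure D1:**
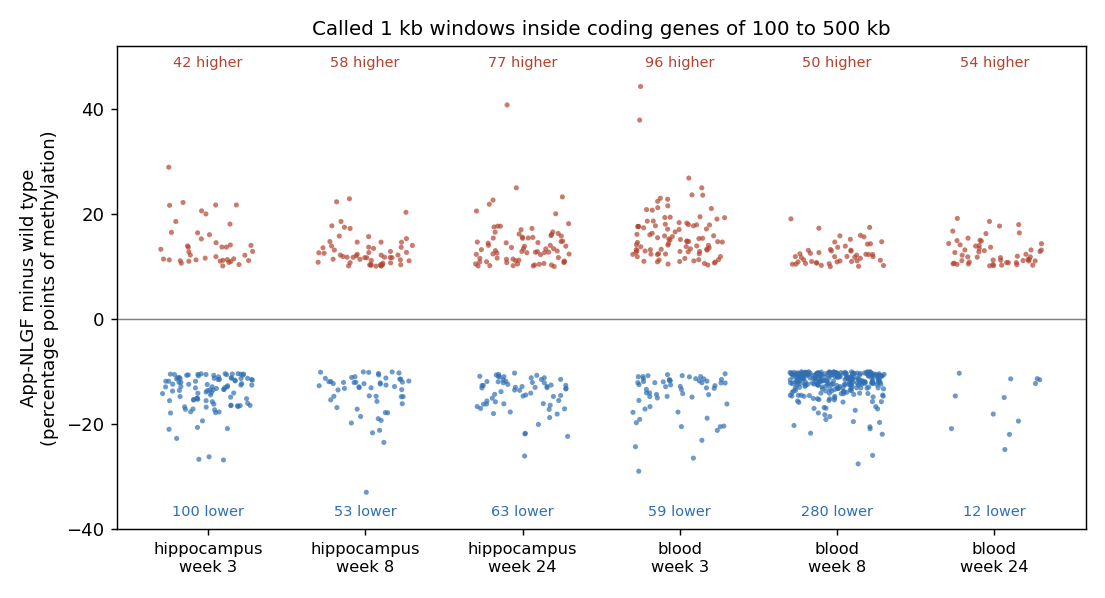
Methylation difference, App-NLGF minus wild type, in percentage points (y axis) for each called window inside a coding gene of 100 to 500 kb, in the 6 comparisons (x axis, with points spread sideways for visibility). Points lie beyond 10 points in either direction by the authors' threshold; lower windows crowd near -10 in blood at week 8, where 280 were lower and 50 higher, and the highest values are 44.3 in blood at week 3 and 40.8 in hippocampus at week 24.

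The differences were mostly small and few passed 20 points. The median absolute difference was 13.1 points in hippocampus at week 3, 12.4 at week 8 and 13.3 at week 24, and 14.4, 11.7 and 12.3 points in blood at weeks 3, 8 and 24. The corresponding medians over all other autosomal windows were 13.8, 13.5 and 14.0 points in hippocampus and 14.8, 11.6 and 13.9 points in blood. A difference of 20 points or more was found at 14, 7 and 12 windows in hippocampus and at 22, 7 and 3 windows in blood, in the order of age. Blood at week 8 thus had the longest list and the smallest median, and 57.0% of its windows differed by less than 12 points. An adjusted p under 0.01 was reached by 7, 2 and 13 windows in hippocampus and by 20, 90 and 5 windows in blood.

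Genes of 100 to 500 kb took a smaller share of the week 8 blood list than of the genome. Windows inside them made up 7.72% (6.93 to 8.56) of the autosomal list, where 16.5% of the 2403248 windows of the 1 kb grid on chromosomes 1 to 19 meet the rule. In the other comparisons the share was 14.8% in hippocampus at week 3, 16.1% at week 8 and 15.9% at week 24, and 14.4% in blood at week 3 and 13.3% at week 24. In the week 8 blood list, windows inside coding genes of 500 kb or more were also few, at 3.81% against 7.43% of the grid. So were windows in no annotated gene, at 25.8% against 48.2%. That list held many windows at gene ends, 43.8% against 4.50% of the grid, which the rule sets aside. With gene-end windows left out on both sides, genes of 100 to 500 kb took 13.7% (12.4 to 15.2) of that list. This was still under the 17.2% of the grid, as were the 13.75% to 16.9% in the other comparisons.

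**Figure D2:**
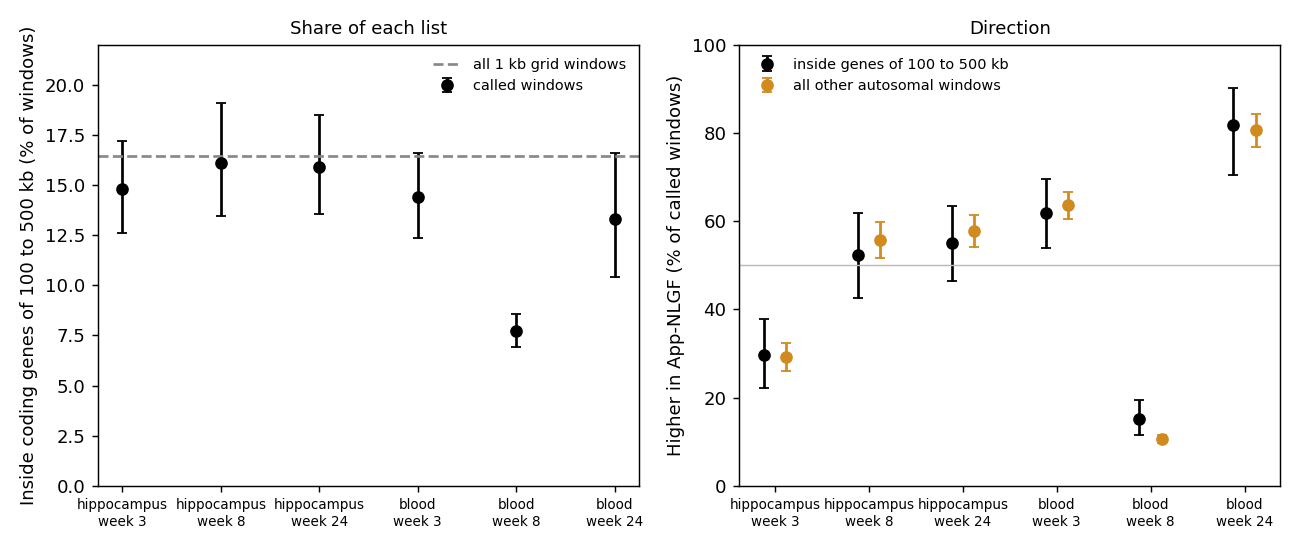
Left, windows inside coding genes of 100 to 500 kb as a percentage of each autosomal list (points, with 95% Clopper-Pearson intervals as bars) beside their share of the 1 kb grid (dashed line, 16.5%); blood at week 8 stands at 7.72%. Right, percentage of windows higher in App-NLGF among these windows (black) and among all other autosomal windows (orange), which lie within each other's intervals except in blood at week 8 (15.2% and 10.5%).

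In blood at week 8, lower windows gathered at the 5′ end of their host genes. Host genes with a strand in the promoter table held 264 of the windows, and 64 of these (24.2%, 19.2 to 29.9) lay in the first of 10 equal parts of the gene, counted from the 5′ end, where 9.34% of the grid lies. Of these 64 windows 61 were lower in App-NLGF and 3 were higher. In hippocampus this first part held 9.17%, 7.32% and 8.04% of windows at weeks 3, 8 and 24, and in blood 7.52% at week 3 and 5.88% at week 24. The last of the 10 parts held 8.33% of the windows of blood at week 8, against 9.34% of the grid, so the gathering lay at the 5′ end. Windows within 1 kb of the outermost start were not taken. The first part still takes in windows close behind that limit, such as those of Zfp536 and Mllt10, 4.04 kb and 1.84 kb from the nearest coding gene end. Gene-end windows of the same list, which the rule sets aside, numbered 1872, and 0.588% of them were higher. Whether the gathering is separate from these was not tested.

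**Figure D3:**
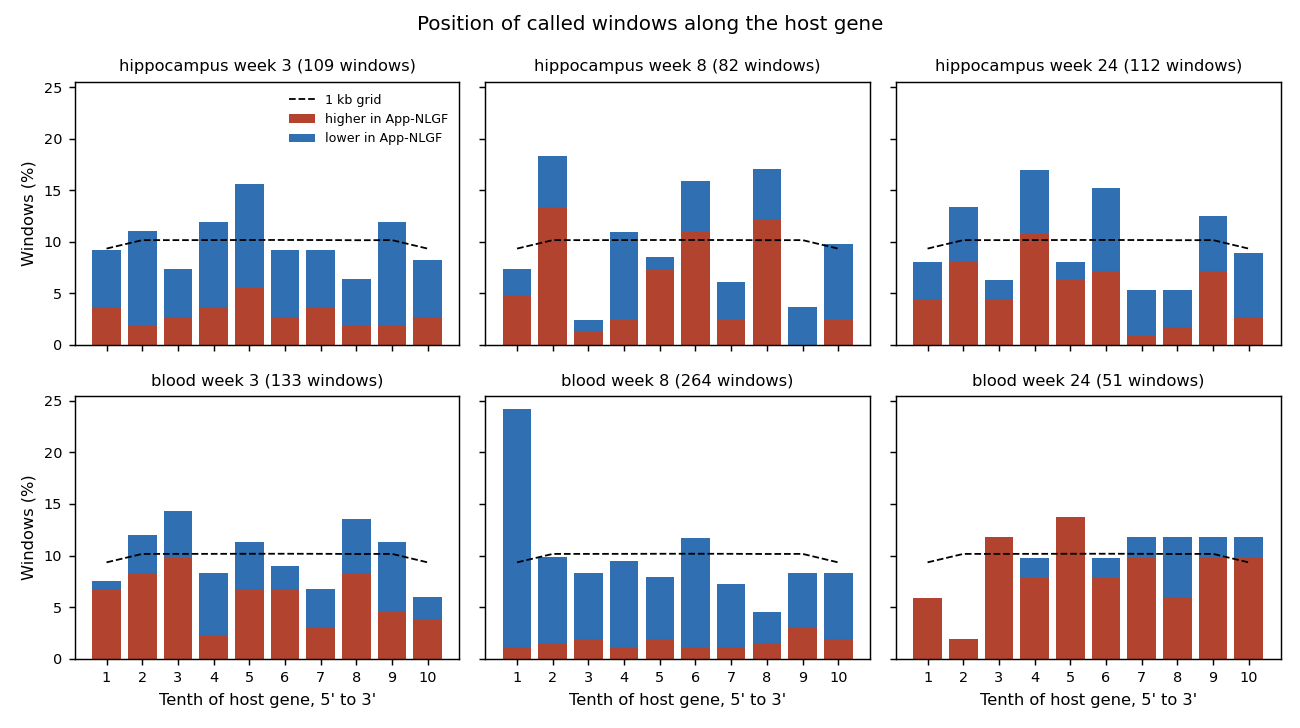
Percentage of windows (y axis) in each of 10 equal parts of the host gene from the 5′ to the 3′ end (x axis), for the 6 comparisons, with windows higher in App-NLGF in red, lower ones in blue and the share of the 1 kb grid as a dashed line. The first part in blood at week 8 holds 24.2% of its 264 windows, against 9.34% of the grid.

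The same list overlapped internal promoters. Promoters were listed for 18 of the 19 autosomes, which held 903 of the 944 windows. For blood at week 8, 33 of 316 windows (10.4%, 7.30 to 14.4) overlapped a listed promoter, where 0.608% of grid windows inside these genes do. All 33 were lower in App-NLGF. In hippocampus 2 of 133 windows did so at week 3, 1 of 101 at week 8 and 1 of 137 at week 24, and in blood 3 of 152 at week 3 and 0 of 64 at week 24. Windows within 5 kb of a listed transcription start made up 30.1% (25.1 to 35.4) of the week 8 blood windows, against 6.40% of the grid and 4.69% to 7.89% in the other comparisons. The listed starts include the outermost start of the host gene, so this share does not separate internal starts from the outermost one. The promoter was that of the host gene itself for 27 of the 33 windows and that of another gene for 10, with some windows holding both kinds. Some of the 33 lay close to the 5′ end of the host gene, at 0.598% of its length in Cpne4, 0.627% in Nxph1 and 0.800% in Eif4g3. Others lay far along, such as that of Sgk1 at 94.6%. The 0.608% of the grid is over whole gene bodies, and whether promoters near the 5′ end are separate from the outermost start was not tested.

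The promoters inside week 8 blood windows were rich in CpG. The richest listed promoter of each window held a median of 21 CpG dinucleotides per 300 bases (5 to 47), and 28 of 33 (84.8%, 68.1 to 94.9) held 10 or more. In the other 5 comparisons the median was 6 (1 to 10) and 1 of 7 held 10 or more. Over all 1960 listed promoters that overlap grid windows inside genes of 100 to 500 kb, the median was 5 and 24.5% held 10 or more, and over all 31365 listed promoters the median was 7 and 43.9% held 10 or more. Called windows were counted by their richest promoter and the background by every promoter singly, so the CpG counts of called windows lean higher. CpG content was not compared by position along the gene. The differences at the promoters of the week 8 blood list were small: the median was 11.1 points at promoter windows and 11.9 points at the rest of the week 8 blood windows.

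**Figure D4:**
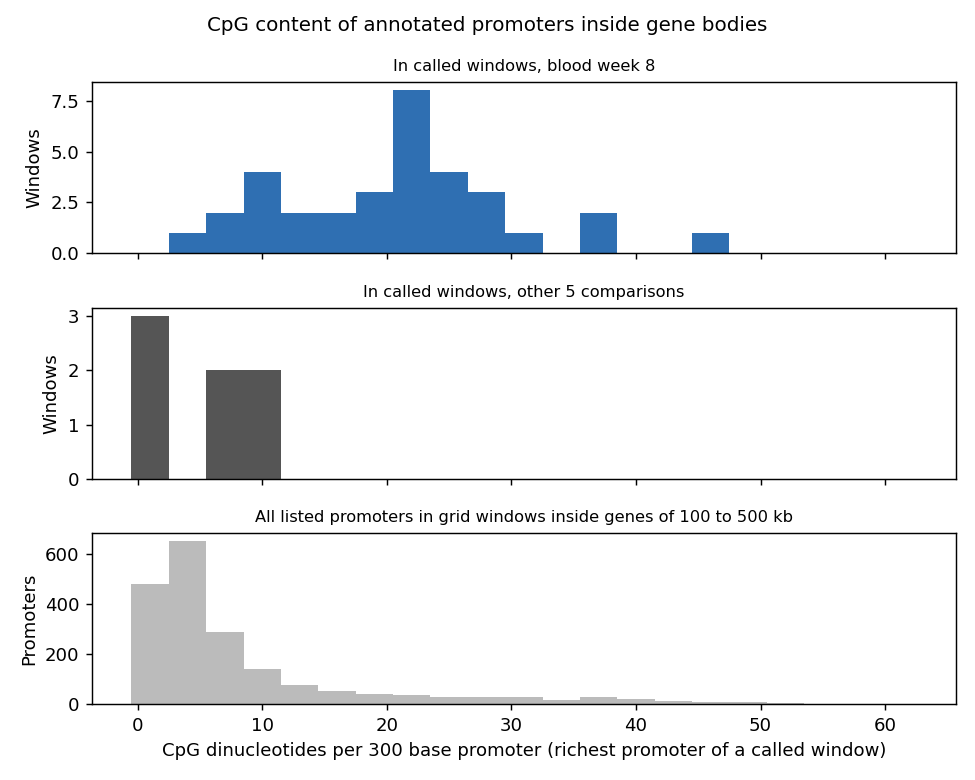
Number of CpG dinucleotides per 300-base promoter (x axis) for the richest promoter of each called window in blood at week 8 (top, 33 windows), in the other 5 comparisons (middle, 7 windows), and for all 1960 listed promoters in grid windows inside genes of 100 to 500 kb (bottom). The week 8 blood promoters, the richest of each window, have a median of 21, against 5 for all listed promoters inside these genes, each counted singly.

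The promoter windows lay in genes of several kinds. In the authors' deposited table the window at the promoter of Zfp536, a zinc finger gene, was at -10.9 points with an adjusted p of 5.03e-09, the smallest among all 944 windows. It lay 1.00% of the way along its host gene, and a second window of Zfp536 in the same list, outside listed promoters, was at 10.7 points per the authors' deposited table. At Cep70, which encodes a centrosomal protein, the authors' deposited table gives -10.7 points (adjusted p = 1.07e-05). At Eif4g3, a translation initiation factor gene, it gives -10.7 points (0.000214 in the authors' deposited table). Sgk1, a kinase gene induced by glucocorticoids and serum, held 2 adjoining windows at -10.7 and -10.3 points in the authors' deposited table, both over listed Sgk1 promoters near the 3′ end of its longest annotated form. Ulk4 was at -10.3 points and Gcnt2, a gene of blood group I antigen synthesis, at -11.2 points per the authors' deposited table. The other promoter windows shown were at -13.8 points for Plb1 in hippocampus at week 24 and -13.1 points for Atxn2 in blood at week 3 per the authors' deposited table.

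In hippocampus at week 3 the largest differences included genes of neuronal wiring and of chromatin. The authors' deposited table gives -26.8 points for Plxna2, a semaphorin receptor, in a window 6.96% of the way along the gene (chr1:194633001-194634000), -26.6 points for Lrrc7, a scaffold of the postsynaptic density, and -26.2 points for Jarid2, a cofactor of Polycomb repressive complex 2. Mylk4, a kinase gene, was at -22.7 points and Cyp2c39, a cytochrome P450 gene, at -20.9 points per the authors' deposited table. The largest increases by the authors' deposited table were 28.9 points at Mrtfb, a coactivator of serum response factor, 21.7 points at Tbc1d5, a regulator of Rab GTPases in retromer transport, 21.7 points at both Ccdc192 and Ccdc18, and 20.6 points at Ncam2, a neural adhesion molecule. The smallest adjusted p belonged to smaller differences. These were 11.3 points at Cd36, a scavenger and fatty acid receptor (adjusted p = 0.00478), -15.7 points at Anks1 (0.00517) and 12.2 points at Nxn, a thioredoxin-family gene (0.00649) per the authors' deposited table.

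In hippocampus at week 8 the largest decrease was -32.9 points at Dennd1a, an exchange factor for Rab35, in a window 95.8% of the way along the gene (chr2:37819001-37820000) per the authors' deposited table. It was followed there by -23.4 points at Themis, a gene of T cell development, -21.6 points at the fibrillin gene Fbn1, -21.1 points at Ppp2r2b, a regulatory subunit of protein phosphatase 2A, and -19.7 points at Plxna4 per the authors' deposited table. The largest increases by the authors' deposited table were 22.9 points at Kansl1, a subunit of a histone acetyltransferase complex, 22.3 points at the cell polarity gene Crb1, 20.3 points at Phf14, 18.6 points at Cdh6, a cadherin, and 17.8 points at Syt16. The windows with the smallest adjusted p by the authors' deposited table were Shroom3, an actin regulator, at -16.1 points (0.000383), Rasal2, a Ras GTPase-activating protein, at -17.1 points (0.00675), and the NMDA receptor subunit gene Grin2b at 14.7 points (0.01005).

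In hippocampus at week 24 a window inside Ephb1, an ephrin receptor gene, stood above all others of that list. It lay 13.7% of the way along the gene (chr9:102295001-102296000), 58.7 kb from the nearest end of a coding gene, and was at 40.8 points with an adjusted p of 2.49e-05 per the authors' deposited table. The next increases by the authors' deposited table were 25 points at Klhl32, 23.3 points at Cacna1e, which encodes the R-type calcium channel, 22.7 points at Oxr1, a gene of oxidation resistance, and 21.9 points at Slc7a11, the cystine and glutamate exchanger of astrocytes and other cells. Decreases by the authors' deposited table were -26.0 points at Lrfn5, a synaptic adhesion gene, -22.3 points at Myo16, an unconventional myosin, and -21.8 points at Dscaml1, a homophilic adhesion gene. Usp32, a deubiquitinase gene, followed at -21.7 points and Epm2a, which encodes laforin, at -20.02 points per the authors' deposited table. Arap2, an Arf GTPase-activating protein, had the smallest adjusted p of this list (17.7 points, 2.33e-05) and Ptpro, a receptor tyrosine phosphatase, the third smallest (-14.5 points, 0.000722) per the authors' deposited table.

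Blood at week 3 held the largest increase among all 944 windows. In the authors' deposited table Slc24a3, a potassium-dependent sodium and calcium exchanger, was at 44.3 points (chr2:145361001-145362000, adjusted p = 0.0644) and Lrrc7 at 37.9 points (adjusted p = 0.0690). The Slc24a3 window lay 40.8% of the way along the gene and overlaps the promoter of a predicted gene with 1 CpG dinucleotide. Spock3, a proteoglycan gene, followed at 26.9 points, and 2 histone-modifying genes, the methyltransferase Kmt2c and the deacetylase Hdac4, at 25 and 23.7 points per the authors' deposited table. Decreases by the authors' deposited table were led by Slc35f1 at -28.9 points, Brinp3 at -26.4 points, Pbrm1, a subunit of a chromatin remodelling complex, at -24.3 points, and Clasp1, which binds microtubule ends, at -23.04 points. Gucy1a2, a soluble guanylate cyclase subunit, followed at -21.2 points per the authors' deposited table. An adjusted p of 2.14e-05, the smallest of the list, was shared in the authors' deposited table by Chd9, a chromatin remodelling helicase, at 14.9 points and Caln1, a calcium-binding protein of neurons, at -14.8 points. Rbm20, a splicing regulator best known from heart muscle, followed at 18.7 points (0.000146) per the authors' deposited table.

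In blood at week 8 the windows with the smallest adjusted p lay within 5 kb of the end of a coding gene. After Zfp536 came Mllt10, a cofactor of the histone methyltransferase Dot1l, at -12.0 points (1.24e-07) and Nedd4l, a ubiquitin ligase of ion channels, at -10.3 points (6.11e-07) per the authors' deposited table. These windows lay 1.84 kb and 3.52 kb from the nearest end of a coding gene. For the largest decreases the authors' deposited table gives -27.5 points for Cpne4, a copine, in a window 30.3% of the way along the gene (chr9:104708001-104709000), -21.9 points for Akap7, an anchor of protein kinase A, and -21.7 points for Cntn6, a contactin. Cdh11, a cadherin, was at -20.8 points and Hecw2, a ubiquitin ligase, at -20.5 points per the authors' deposited table. The few increases by the authors' deposited table were led by Kcnq3, a subunit of the M-current potassium channel, at 19.1 points, Zfhx4 at 17.5 points, Luzp2 at 17.3 points, Bmper, which binds bone morphogenetic proteins, at 15.96 points, and the metabotropic glutamate receptor Grm3 at 15.9 points.

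In blood at week 24 the list was short and mostly higher. The authors' deposited table gives 18.6 points for Slc8a3, a sodium and calcium exchanger, 18 points for Sipa1l2, a Rap GTPase-activating protein, and 17.7 points for the L-type calcium channel Cacna1d. Dtna, which encodes a dystrobrevin, was at 16.8 points per the authors' deposited table. The 12 decreases reached -24.8 points at Adk, which encodes adenosine kinase, in a window 57.6% of the way along the gene (chr14:21280001-21281000), -21.9 points at Rbpms, an RNA-binding protein, -20.8 points at Nell2 and -19.4 points at Lyrm4, an iron-sulfur cluster assembly gene per the authors' deposited table. Pla2r1 was at -18.05 points, and the smallest adjusted p belonged to Galnt17 at 16.3 points (0.00211), Ntng1, a netrin-G adhesion gene, at 11.4 points (0.00794), and Dnm3, a dynamin, at 11.3 points (0.00906) per the authors' deposited table.

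Gene groups were described by how many of their members of 100 to 500 kb held a window, against 721 of 2097 genes (34.4%) and 2.30 windows per Mb of gene over all genes of this length. Over all of them 377 windows were higher and 567 lower. Of the genes with a window 277 stood in at least 1 of 19 lists, and 20 stood in more than 1. The counts describe these lists and were not tested.

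Glutamate receptor and postsynaptic density genes and presynaptic genes held windows in all 6 comparisons. Inhibitory synapse genes held none in hippocampus at week 8 or in blood at week 24. Of all genes of this length, 2.96% to 13.8% held a window in a comparison. Of 25 genes of glutamate receptors and the postsynaptic density 13 held 22 windows, 10 higher and 12 lower, at 3.21 per Mb. Lrrc7 was at -26.6 points in hippocampus at week 3, 37.9 points in blood at week 3 and 11.9 points in blood at week 8 per the authors' deposited table. The NMDA receptor subunit Grin2a was at -19.3 points in hippocampus at week 8, the kainate receptor subunit Grik3 at 17.3 points in hippocampus at week 24, and Grm3 at 17.2 points in blood at week 3 per the authors' deposited table. Of 25 genes of presynaptic vesicle release 15 held 22 windows, 6 higher and 16 lower, at 3.56 per Mb. Blood at week 8 had windows in 8 of these 25 genes (32%, against 13.8% of all genes of this length), 1 higher and 9 lower. Hippocampus at week 3 had windows in 5 (20%, against 6.63%), 1 higher and 4 lower. Members by the authors' deposited table were Sh3gl2, an endophilin, at -17.8 points, Syn3 at 16.5 points and Syn2 at -16.4 points in hippocampus at week 3, and Syt14 at -17.04 points in hippocampus at week 24. Synapsins coat synaptic vesicles. Of 9 genes of GABA and glycine receptors and the inhibitory synapse 4 held 5 windows, 3 higher and 2 lower, at 2.11 per Mb. Among these the authors' deposited table gives the GABA receptor subunits Gabrb1 at 16.1 points in hippocampus at week 3, Gabrb2 at -16.1 points in hippocampus at week 24, and Gabra2 at 14.1 points in blood at week 3 and -15.1 points at week 8. The metabotropic GABA receptor gene Gabbr2 was at 12.5 points in blood at week 3 per the authors' deposited table.

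Ion channel genes had windows of both signs. Of 21 genes of voltage-gated calcium and sodium channels 11 held 14 windows, 7 higher and 7 lower, at 2.94 per Mb, and 6 of these genes (28.6%) had a window in blood at week 3, against 7.20% of all genes of this length. Beside Cacna1e and Cacna1d, the authors' deposited table gives the auxiliary calcium channel subunit Cacna2d1 at 15.3 points and the sodium leak channel Nalcn at 14.6 points, both in blood at week 3. Of 20 genes of potassium and HCN channels 9 held 10 windows, 2 higher and 8 lower, at 1.63 per Mb. Kcnb2 was at -15.7 points and Kcnn2 at 13.1 points in hippocampus at week 24, and Kcnh7 at -15.5 points and Kcnj3 at -14.7 points in blood at week 3 per the authors' deposited table. Of 18 genes of calcium release, calcium exchange and TRP channels 6 held 10 windows, 7 higher and 3 lower, at 2.68 per Mb. Beside Slc24a3 and Slc8a3, the authors' deposited table gives Stim1, the calcium sensor of the endoplasmic reticulum, at -18.04 points in hippocampus at week 24 and the IP3 receptor Itpr1 at -14.6 points in blood at week 24.

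Axon guidance and adhesion genes held more windows per Mb than the 2.30 of all genes of this length. Of 30 axon guidance genes 19 held 25 windows, 10 higher and 15 lower, at 3.32 per Mb. Hippocampus at week 3 had windows in 5 of the 30 genes (16.7%, against 6.63% of all genes of this length), all 5 lower, in a list with 42 higher and 100 lower. Hippocampus at week 8 had windows in 2 (6.67%, against 5.25%) and at week 24 in 6 (20%, against 6.49%), 4 higher and 2 lower at week 24. Blood had windows in 0 at week 3, against 7.20%, and in 3 at week 24 (10%, against 2.96%). The largest share was in blood at week 8, with 9 of the 30 genes (30%, against 13.8%) and 2 windows higher and 7 lower. Beside Plxna2, Ephb1, Dscaml1 and Plxna4, the ephrin receptor gene Epha3 was at -17.8 points in hippocampus at week 3 per the authors' deposited table. Of 42 genes of cell adhesion molecules 22 held 36 windows, 12 higher and 24 lower, at 3.58 per Mb, and 14 of them (33.3%) had a window in blood at week 8, against 13.8% of all genes of this length. Their windows were 1 higher and 17 lower there, in a list with 50 higher and 280 lower over all these genes. The largest, in Lrfn5, Cntn6, Cdh11, Ncam2 and Cdh6, are given with their comparisons. Of 32 genes of receptor tyrosine kinases and phosphatases 13 held 15 windows, 6 higher and 9 lower, at 2.37 per Mb. Epha7 was at -17.6 points in hippocampus at week 24 and the neurotrophin receptor gene Ntrk3 at -14.1 points in hippocampus at week 3 per the authors' deposited table.

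Signalling genes stood near the density of all genes of this length. Of 30 genes of cyclic nucleotide signalling 11 held 16 windows, 5 higher and 11 lower, at 2.35 per Mb. Members by the authors' deposited table were the adenylyl cyclase genes Adcy8 at -19.1 points in blood at week 8 and Adcy5 at 15.1 points in blood at week 3, and the CREB-family gene Creb5 at 17.7 points in blood at week 3. Of 27 genes of protein kinase C and phospholipase C signalling 8 held 14 windows, 5 higher and 9 lower, at 2.18 per Mb. Prkcb, a protein kinase C, was at -15.4 points in hippocampus at week 3, the G protein subunit gene Gnaq at 15.0 points in blood at week 24 and Rgs3, a regulator of G protein signalling, at -14.7 points in blood at week 8 per the authors' deposited table. Of 78 genes that regulate small GTPases 32 held 38 windows, 15 higher and 23 lower, at 2.34 per Mb. Beside Dennd1a and Tbc1d5, the authors' deposited table gives Dennd5b at 23.02 points in blood at week 3 (adjusted p = 0.00103) and the Rac exchange factor Tiam2 at 20.04 points in hippocampus at week 3.

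Transcription factor genes had most of their windows in blood at week 8, and other nuclear genes did not. Of 108 transcription factor genes 44 held 57 windows, 21 higher and 36 lower, at 2.39 per Mb. Among the 108, 27 (25%) had a window in blood at week 8, with 4 windows higher and 27 lower, against 13.8% of all genes of this length. The share in blood at week 8 was larger for cell adhesion molecules (33.3%), presynaptic vesicle release (32%) and axon guidance (30%). In the authors' deposited table Zfp608 was at -19.6 points (adjusted p = 0.000910) and Zfhx4 at 17.5 points there, while in blood at week 3 Elf1, an ETS factor of blood cells, was at 19.4 points and Thrb, a thyroid hormone receptor, at 17.9 points. Of 44 genes of chromatin and DNA methylation 16 held 17 windows, 6 higher and 11 lower, at 2.21 per Mb. Beside Jarid2, Kmt2c, Hdac4 and Phf14, the bromodomain gene Baz2b was at -19.3 points in hippocampus at week 3 per the authors' deposited table. Of 25 genes of RNA binding and splicing 10 held 16 windows, 6 higher and 10 lower, at 3.46 per Mb. Among these the authors' deposited table gives the splicing regulator Mbnl1 at -15.3 points and Tnrc6b, a partner of Argonaute proteins, at -13.03 points, both in hippocampus at week 3.

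Of 81 genes of the cytoskeleton and its motors 32 held 45 windows, 20 higher and 25 lower, at 2.28 per Mb. They were 2 higher and 8 lower in hippocampus at week 3 and 7 higher and 1 lower at week 8. Beside Clasp1, Myo16 and Dtna, the unconventional myosin Myo3a was at 18.4 points and the dystrophin relative Utrn at 14.4 points in blood at week 3 per the authors' deposited table. Over all genes of this length the windows were 42 higher and 100 lower in hippocampus at week 3 and 58 higher and 53 lower at week 8, and the difference of the cytoskeleton genes from these was not tested.

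Genes known from cell types of either tissue held windows in both. Of 41 immune and blood cell genes 17 held 22 windows, 10 higher and 12 lower, at 3.03 per Mb, with 6 genes in hippocampus at week 24 (14.6%, against 6.49% of all genes of this length), 7 in blood at week 8 (17.1%, against 13.8%) and 0 in blood at week 24 (against 2.96%). Beside Themis and Elf1, the authors' deposited table gives the T cell adaptor Skap1 at -18.5 points in blood at week 8, the interleukin 1 receptor accessory gene Il1rap at 18.1 points in hippocampus at week 3 and Skap2 at 17.6 points in hippocampus at week 24. Of 19 glial and vascular genes 9 held 14 windows, 6 higher and 8 lower, at 3.03 per Mb. Beside Slc7a11 and Luzp2, the bicarbonate transporter Slc4a4 of astrocytes was at 16.2 points in hippocampus at week 24, Tnr, a matrix protein made by oligodendrocytes, at -15.2 points in hippocampus at week 3 and Dock10 at -13.2 points in hippocampus at week 8 per the authors' deposited table.

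Of 24 genes at Alzheimer risk loci or of App processing 7 held 10 windows, 7 higher and 3 lower, at 2.38 per Mb, near the 2.30 per Mb of all genes of this length. Members by the authors' deposited table were Sorcs2, a sorting receptor, at -15.3 points in hippocampus at week 8, Hs3st5, a heparan sulfate sulfotransferase, at 11.3 points in hippocampus at week 8 and 14.7 points in blood at week 3, Jazf1 at 14.6 points in hippocampus at week 3, and the kinase gene Ptk2b at 13.5 points in blood at week 24. Mapt, which encodes tau, held 3 windows. They were at 10.3 points in hippocampus at week 8, -11.2 points in blood at week 8 and 10.3 points in blood at week 24 in the authors' deposited table. The blood windows lay at different positions, chr11:104232001-104233000 at week 8 and chr11:104267001-104268000 at week 24. They therefore show no change of sign at a single position. Each had the sign of most windows of its list, with 280 of 330 lower at week 8 and 54 of 66 higher at week 24.

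No window of this kind lay in App itself. Within 5 Mb of it, Ncam2 was the single host gene, with 6 windows at 3.36 to 3.74 Mb. In the authors' deposited table these stood at 20.6 points in hippocampus at week 3, at 18.1 points in blood at week 3, and at -12.1, -14.1, -14.2 and -16.8 points in blood at week 8. Both week 3 windows, which came from different tissues, were higher, and all 4 at week 8, from blood alone, were lower. In that blood list 280 of 330 windows inside these genes were lower. The 6 windows lay at different positions, so they show no change of sign at a single position, and a change with age was not tested.

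Recurrence across comparisons was mostly by gene, not by window. Of the 721 host genes 579 had windows in 1 comparison, 122 in 2, 15 in 3 and 5 in 4. Windows lay in 6.63%, 5.25% and 6.49% of all 2097 genes of this length in hippocampus at weeks 3, 8 and 24. In blood they lay in 7.20%, 13.8% and 2.96%. No recurrence expected from these shares or from gene length was computed, so recurrence was not tested. The comparisons are of different libraries, except that blood and hippocampus of 1 age may come from the same animals. Of the 142 genes in 2 or more comparisons 75 held windows of both signs, 45 only lower and 22 only higher windows. Over all 944 windows 377 were higher and 567 lower, and the split of signs was not tested. The same window was called in more than 1 comparison for 3 genes. At Tns1, a focal adhesion gene (chr1:74099001-74100000), the authors' deposited table gives -12.9 points in hippocampus at week 3 and -10.1 points in blood at week 8. At Armh4 (chr14:49711001-49712000) it was 13.6 points in hippocampus at week 8 and 16.6 points at week 24 per the authors' deposited table. At Cacna2d1 (chr5:15954001-15955000) the sign turned, with 15.3 points in blood at week 3 and -10.5 points at week 8 per the authors' deposited table.

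Of the 5 genes with windows in 4 comparisons, 2 kept a single direction. Limch1, an actin and myosin regulator, was higher in all 4 of its windows in the authors' deposited table, at 10.7 points in hippocampus at week 3, 11.9 points at week 8, 14.2 points in blood at week 3 and 11.9 points at week 24. Prkd1, a protein kinase D, was lower in all 4, at -20.6 points in hippocampus at week 3, -17.8 points at week 8, -10.9 points in blood at week 3 and -12.04 points at week 8 per the authors' deposited table. The other 3 genes had windows of both signs. Rbm20 was at -12.2 points in hippocampus at week 8, 13.4 points at week 24, 18.7 points in blood at week 3 and -10.1 points at week 8 per the authors' deposited table. Slc35f1 was at 18.2 points in hippocampus at week 24 and at -28.9, -10.5 and 11.1 points in blood at weeks 3, 8 and 24 per the authors' deposited table. Tafa2, which encodes a chemokine-like secreted protein, was at -13.7 points in hippocampus at week 3 and 10.03 points at week 24, at -10.1 and -11.6 points in blood at week 8 and at 14.9 points at week 24 per the authors' deposited table.

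Among genes with windows in 3 comparisons, Syn2 and Cdk6 were lower throughout and Slc24a3 higher throughout. In the authors' deposited table Syn2 was at -16.4 points in hippocampus at week 3, -15.6 points at week 8 and -11.1 points in blood at week 8. Cdk6, a cell cycle kinase gene of blood progenitors, was at -10.8 points in hippocampus at week 3, -18.7 points at week 24 and -12.5 points in blood at week 8 per the authors' deposited table. Slc24a3 was at 10.4 points in hippocampus at week 8, 44.3 points in blood at week 3 and 15.7 and 13.7 points in blood at week 8 per the authors' deposited table. Within each of these genes the windows of different comparisons lay at different positions. In Slc24a3 the window of hippocampus at week 8 (chr2:145219001-145220000) lay within 10 kb of one of blood at week 8 (chr2:145217001-145218000).

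**Figure D5:**
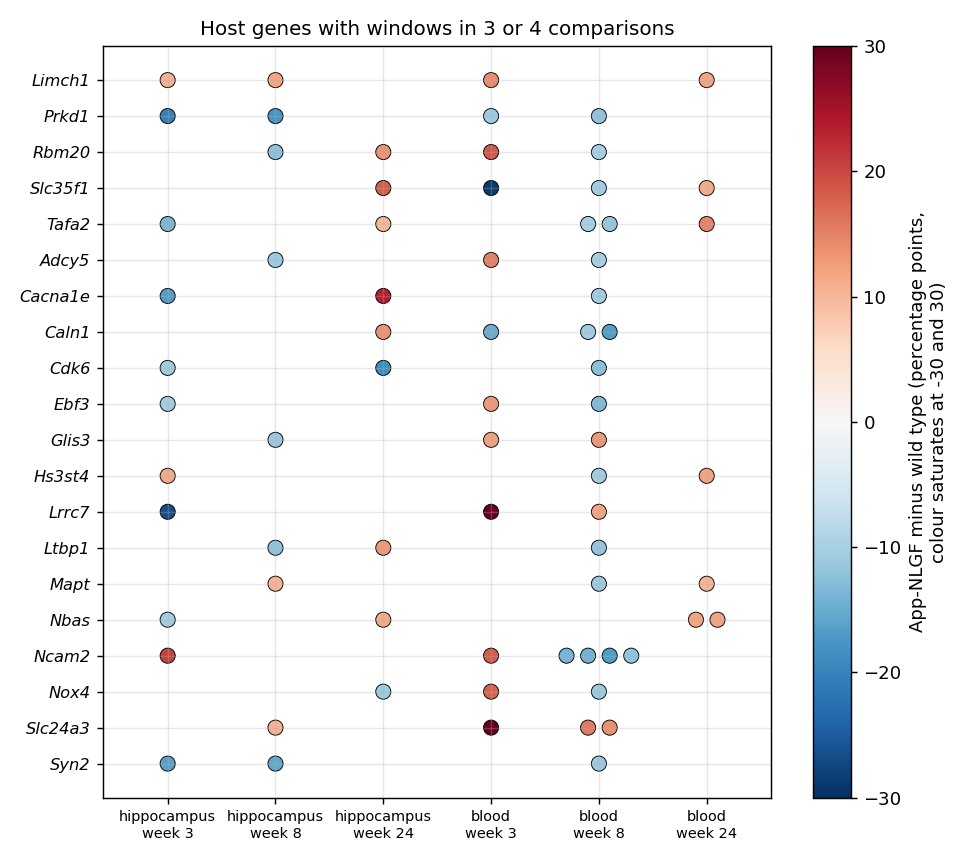
The 20 host genes (rows) with windows in 3 or 4 comparisons (columns), each window a circle coloured by its difference, App-NLGF minus wild type, in percentage points. Limch1 and Slc24a3 are red throughout and Prkd1, Syn2 and Cdk6 blue throughout, while Lrrc7, Slc35f1 and Cacna1e have windows of both signs.

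Several windows within 1 host gene were found mainly in blood at week 8. There 33 of 290 host genes held 2 or more windows, 28 of them all lower, 1 all higher and 4 of both signs. In that list 280 of 330 windows were lower. Such genes were 3 of 139, 1 of 110 and 4 of 136 host genes in hippocampus at weeks 3, 8 and 24. In blood they were 4 of 151 at week 3 and 4 of 62 at week 24. The counts were not adjusted for the length of the lists and were not tested. The 4 genes of both signs were Grin2a, Luzp2, Ulk4 and Zfp536, so the single values printed for them cannot stand for the gene, and the same holds for Itpr1 and Lyrm4 in blood at week 24. Cpne4 held 4 windows from -27.5 to -12.4 points and Kctd1 held 3 from -14.5 to -10.03 points per the authors' deposited table. Tns1 held 3 from -11.1 to -10.1 points, and Ulk4 held 2 lower windows and 1 at 13.0 points per the authors' deposited table. Windows of 1 list within 10 kb of each other formed 11 clusters, 10 of them in blood at week 8. Of these 10, 9 were lower and 1, in Slc24a3, was higher, and the remaining cluster was lower, in Fam53b in blood at week 24. The cluster in the authors' deposited table with the smallest adjusted p was in Tns1 (2.36e-06). Others by the authors' deposited table were in Syt2, a synaptotagmin (-14.2 and -10.7 points), Gse1 (-12.3 and -10.9 points), Sdk2, an adhesion gene (-12.4 and -10.3 points), and Hivep2, a zinc finger gene (-11.2 and -10.2 points).

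The windows nearest to the limits of the rule are given on either side as examples only. All had passed the threshold of 10 points, and the pairs by gene length came from different comparisons. Their sizes therefore cannot show whether the limits matter. Scel, of 100.3 kb and inside, was at -12.03 points in blood at week 8 and Lcp1, of 99.7 kb and outside, at -10.5 points in hippocampus at week 24 per the authors' deposited table. Dnm3, of 495.9 kb and inside, was at -11.5 points in blood at week 8 and Edil3, of 501.8 kb and outside, at -12.4 points in hippocampus at week 3 per the authors' deposited table. By distance, a window of Rps6kc1 lay 1010 bp from a coding gene end and was taken, at -11.8 points, while a window of Cdk6 lay 997 bp away and was not, at -10.6 points, both in blood at week 8 per the authors' deposited table.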

How the data were processed

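Per the labels' protocols, genomic DNA from 60 hippocampus and 60 blood samples was sheared, built into libraries, bisulfite converted and amplified. The tools named per the submitters' processing notes are FastQC, Trim Galore, Bismark and methylKit, with the mm10 build and without versions or settings. The deposited p-values and adjusted p-values are the authors' own, as is the difference score, a signed methylation difference in percentage points. Columns of values per library numbered 0, so no test across samples, error or coverage could be computed.

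Windows were placed on RefSeq genes and promoters of GRCm38.p6, whose chromosomes share mm10 coordinates, in Python 3.11.15 (pandas 2.3.3, numpy 2.4.6, scipy 1.17.1). The placement was tested on simulated data. The number of tested windows was derived by dividing p by adjusted p, assuming Benjamini-Hochberg adjustment. Between 41.7% and 75.8% of the ranks up to 1000 came out whole within 0.02. The promoter table covers 18 of 19 autosomes and gave the strand of 1603 of 2097 genes. Grid shares count each 1 kb window of an autosome from 3e+06 bp to its last annotated gene end. The same rule was applied, whether or not reads covered the window.

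Named genes are the top 5 windows in each direction of each comparison and its 3 windows of smallest adjusted p, without predicted genes. Some windows that this rule takes are not reported here. Added to these are up to 5 windows per gene list by size, windows and host genes in several comparisons, genes with several windows, clusters within 10 kb and any window within 5 Mb of App. Members, gene lists and this rule were chosen with earlier results of these data known. Alternatives used an adjusted p under 0.01, 15 points, 5 kb from gene ends, every overlapped gene, merged windows, no chromosome 16 and no promoter windows.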

Additional observations from a re-analysis of the deposited data

How the results depend on the processing

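Of 126 alternative values of the share higher, the share of the list and the median absolute difference, 98 moved by less than their interval and 28 moved by more. The share higher crossed an even split only in hippocampus at week 8, whose interval holds the even split, among windows with an adjusted p under 0.01 and among those of at least 15 points, with the values below. All 18 values were of the first kind when every overlapped gene had to measure 100 to 500 kb, when windows within 10 kb were merged and without chromosome 16. With an adjusted p under 0.01, the share higher was 42.9% (of 7 windows), 0% (of 2) and 76.9% (of 13) in hippocampus at weeks 3, 8 and 24, and 3.33% (of 90) and 100% (of 5) in blood at weeks 8 and 24. Its share of the list was then 12.3% and 8.33% in hippocampus at weeks 3 and 8, and 20%, 4.92% and 16.7% in blood at weeks 3, 8 and 24. Its median difference was 16.6 and 14.5 points in hippocampus at weeks 8 and 24, and 11.3 and 11.4 points in blood at weeks 8 and 24. Among windows of at least 15 points, the share higher was 40% in hippocampus at week 8, and 74.2% and 64.3% in blood at weeks 3 and 24. The share of the list was 12.6% and 10.4% in hippocampus at weeks 3 and 8 and 7.49% in blood at week 24. The median, which this threshold raises by construction, was 17.1, 17.8 and 17.03 points in hippocampus and 18.3, 16.97 and 18.02 points in blood. In blood at week 8 the share of the list was 5.96% for windows more than 5 kb from gene ends, and 10.04% without windows at listed promoters on both sides, an alternative added after the data were seen. The cause of the other movements was not tested. No paired analysis was possible because no values per library were used, and for the same reason no replicate could be left out. Depth is unknown, so thinly and deeply covered windows look alike, and a window missing from the table may have missed a threshold or coverage.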

Other observations

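Genes of 200 to 300 kb held 18.2% (14.2 to 22.8) of the windows of blood at week 8, where 24.4% of the grid lies, 21.8%, 30.6% and 21.4% of the windows in hippocampus at weeks 3, 8 and 24, and 21.3% and 13.6% (6.43 to 24.3) in blood at weeks 3 and 24. The median length of the host gene was 208.5 kb over all windows and 217.5 kb over the grid. Windows less than 10 kb from the end of a coding gene made up 15.5% of the 944, against 10.5% of the grid. At a distance of 5 kb blood at week 8 stood apart, with 255 of its 330 windows farther away, against 138 of 142, 106 of 111 and 132 of 140 in hippocampus at weeks 3, 8 and 24, and 150 of 155 and 65 of 66 in blood at weeks 3 and 24. A noncoding gene also lay over 67 windows (7.10%, against 5.81% of the grid), and 11 windows overlapped 2 coding genes. Chromosome 16, which carries App, held 38 windows (4.03%, against 3.31% of the grid), chromosome 5 held 81 (8.58%, against 6.58%) and chromosome 4 held 36 (3.81%, against 6.09%). None of these shares was tested.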
